A study of Rattus norvegicus with 4 samples.

Results

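The proteins of the mitochondrial ribosome are encoded by nuclear genes named Mrpl, for the large subunit, and Mrps, for the small subunit. Of 18755 genes listed in each of 4 rat cortical libraries, 75 rows carried such a name. The 72 kept here reached 1 FPKM (reads scaled by gene model length and by the library total) in at least 1 library and were not named as pseudogenes. They comprised 44 Mrpl and 28 Mrps genes, among 12394 genes that met the same expression minimum and are called the genes tested. The weakest gene kept was Mrpl52, at 4.14 FPKM in its highest library. The 3 rows left out were the pseudogene Mrpl42-ps2, with 1 read in all, and a pair of rows both named Mrps17, whose highest values were 0.359 and 0.451 FPKM.

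Primary cortical cells of SD rats, taken at embryonic day 16, were seeded at 100000 cells per well and kept for 24 h in Neurobasal medium with B27 supplement and antibiotic. All 4 groups received this same culture and differed in the hydrogel beneath the cells, named SFMA, N-SFMA, L-SFMA (L@SFMA in the treatment label) and NL-SFMA (NL@SFMA). The study concerns hydrogels that carry cues for adhesion between cells and their effect on growing neurons. SFMA served as the reference here because the other 3 names add a letter to it. The sources used here do not say what N and L stand for. Each hydrogel had 5 parallel wells but 1 sequenced library, and whether the wells were pooled is not stated. No spread between cultures can therefore be measured, no test between hydrogels was possible, and every difference below is between libraries.

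The mitochondrial ribosome translates the few messages of the mitochondrial genome, which encode core subunits of the respiratory chain complexes and of the ATP synthase. Its small subunit binds the messenger RNA and holds the decoding centre, and its large subunit forms the peptide bond and passes the new chain through a tunnel to the inner membrane. Some of its proteins have counterparts in bacterial ribosomes and others are found only in mitochondria. All of them are imported from the cytosol. Neurons rely on the respiratory chain for the energy that growth and signalling need.

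The names do not follow the structure in every case. Mrps30 and Mrps18a are small-subunit names for proteins that sit in the large subunit, and Mrps36 is a subunit of the 2-oxoglutarate dehydrogenase complex rather than of the ribosome. Subunits were therefore compared by name (44 and 28 genes) and also by place (46 large and 25 small).

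Promoter sequences from RefSeq (rat assembly GRCr8), running from 250 bases before to 50 bases after the annotated start, were matched by symbol for 57 of the 72 genes, with 59 promoters. The 5 shown belong to the pair of genes that were highest and to 3 of those that were lowest on NL-SFMA against SFMA once gene length was allowed for, and were chosen after these values were seen. Capitals mark exact matches to the core letters of 3 motifs found in many promoters of mitochondrial genes, searched on both strands. These were CCGGAAG for ETS-family factors such as GABPA, GCGCANGCG for NRF1 and AAGATGGCG for YY1.
Mrps10, chr9:21122404-21122703, minus strand: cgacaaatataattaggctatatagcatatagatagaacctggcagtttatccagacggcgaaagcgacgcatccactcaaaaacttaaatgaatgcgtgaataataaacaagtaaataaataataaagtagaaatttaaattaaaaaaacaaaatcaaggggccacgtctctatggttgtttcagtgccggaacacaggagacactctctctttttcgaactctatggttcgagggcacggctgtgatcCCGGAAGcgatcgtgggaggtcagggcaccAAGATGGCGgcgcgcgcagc
Mrps30, chr2:52195855-52196154, minus strand: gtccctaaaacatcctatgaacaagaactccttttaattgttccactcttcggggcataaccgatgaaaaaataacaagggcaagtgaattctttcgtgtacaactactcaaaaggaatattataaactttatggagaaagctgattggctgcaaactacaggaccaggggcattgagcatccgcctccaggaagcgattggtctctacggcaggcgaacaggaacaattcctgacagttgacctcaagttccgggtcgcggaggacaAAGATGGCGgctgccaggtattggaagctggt
Mrps26, chr3:138222074-138222373, plus strand: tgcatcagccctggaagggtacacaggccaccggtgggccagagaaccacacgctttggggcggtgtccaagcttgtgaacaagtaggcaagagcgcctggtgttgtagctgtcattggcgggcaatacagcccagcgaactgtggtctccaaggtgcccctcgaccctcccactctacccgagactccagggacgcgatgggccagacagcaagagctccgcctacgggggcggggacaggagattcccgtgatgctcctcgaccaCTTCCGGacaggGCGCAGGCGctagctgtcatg
Mrpl54, chr7:9103275-9103574, plus strand: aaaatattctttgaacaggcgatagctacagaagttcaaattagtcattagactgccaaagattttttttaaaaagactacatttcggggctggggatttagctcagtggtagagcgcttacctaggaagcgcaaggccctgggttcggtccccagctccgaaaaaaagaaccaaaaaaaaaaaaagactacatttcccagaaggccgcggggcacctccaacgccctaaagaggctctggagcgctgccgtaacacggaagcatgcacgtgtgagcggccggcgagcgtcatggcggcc
Mrps18a, chr9:22367331-22367630, minus strand: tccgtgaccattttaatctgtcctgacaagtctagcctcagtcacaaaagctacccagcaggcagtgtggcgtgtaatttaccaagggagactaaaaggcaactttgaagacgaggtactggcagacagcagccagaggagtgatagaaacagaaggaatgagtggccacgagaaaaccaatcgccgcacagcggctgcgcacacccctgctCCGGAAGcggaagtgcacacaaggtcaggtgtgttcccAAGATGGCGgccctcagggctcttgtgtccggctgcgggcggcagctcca

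Mrps10 held an ETS and a YY1 match, Mrps30 a YY1 match, Mrps26 an ETS match on the opposite strand followed by an NRF1 match, Mrpl54 none of the 3, and Mrps18a an ETS and a YY1 match. Over all 59 promoters the ETS letters occurred in 20, which is 33.9%, against 17.8% of the 10381 promoters of the genes tested and 8.75% of all 33469 promoters in the table. The YY1 letters occurred in 8 (13.6%, against 3.66% and 1.73%), and the NRF1 letters in 11 (18.6%, against 13.7% and 5.80%). The last letters of the ETS motif (AAG) are also the first of the YY1 motif, so these could overlap. In all, 31 of the 59 promoters held at least 1 of them, and 8 held 2 or more. Of the 8 YY1 matches 7 lay on the gene's own strand, from 0 (Mrps18a) to 30 bases (Mrps10) past the annotated start. These lie in the transcribed part, and the YY1 letters contain ATG. Whether they mark the start of translation was not tested. A match is a description of the sequence and no measurement of binding.

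The libraries held 17553098 gene-assigned reads with SFMA, 15429180 with N-SFMA, 16340264 with L-SFMA and 14172205 with NL-SFMA. The median mitoribosomal gene had 866.5, 522, 501 and 307 reads in the same order. Neuronal markers were abundant in every library: Tubb3, Dcx, Map2, Stmn2 and Gap43, all 5 of the list, summed to between 2597 and 3526 FPKM. Tubb3 made up most of each sum. Dcx (68.3, 140, 161 and 266 FPKM, in the same order) and Map2 (24.7, 56.5, 61.1 and 98.0) were lowest with SFMA and highest with NL-SFMA. Tubb3, Stmn2 and Gap43 were highest with N-SFMA. Markers of other cells also differed between the libraries. The 6 radial glia markers summed to 1487 FPKM in SFMA against 641 to 747 elsewhere. In SFMA, Vim held 1088 FPKM of this sum and Fabp7 264. Nes, at 17.4, 15.6, 18.3 and 14.9 FPKM, was highest with L-SFMA. The other radial glia markers were highest with SFMA. These levels do not allow for gene length, which is treated below. After that allowance every radial glia marker was below SFMA in each other library. For Nes the log2 difference was -0.43 with N-SFMA, -0.40 with L-SFMA and -0.78 with NL-SFMA. Every neuronal marker was above SFMA, from 0.07 for Gap43 with L-SFMA to 1.19 for Map2 with NL-SFMA. For 4 of 5 erythroid markers the sum was 545 FPKM in SFMA against 69.6 to 161 elsewhere. Of 4 microglial markers 3 were listed and summed to 20.02 FPKM in SFMA and to between 5.49 and 13.7 elsewhere, the 4 oligodendrocyte-lineage markers to 13.4 and between 5.67 and 8.38 (Olig1 and Olig2 were highest in SFMA and Mbp and Pdgfra lowest there), and the 3 astrocyte markers to between 1.84 and 3.54 in all 4. Endothelial (3 of 4 listed) and meningeal (4 of 4) markers stayed under 2 FPKM in sum, with Cdh5 at 0 in N-SFMA, Dcn at 0 in L-SFMA and Lum at 0 in NL-SFMA. The part of these cell differences in the values below was not tested, and in bulk RNA fewer cells of a type and less RNA per cell cannot be told apart.

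Mitoribosomal transcripts were most abundant in the SFMA library and least abundant in the NL-SFMA library. The 72 genes together held 0.368% of all reads with SFMA, 0.267% with N-SFMA, 0.243% with L-SFMA and 0.178% with NL-SFMA. As summed FPKM, a level per length, this was 2593, 1827, 1682 and 1150. Wherever 4 values follow each other below without names, they stand in this order of libraries, and 3 values stand for N-SFMA, L-SFMA and NL-SFMA, each against SFMA. The highest of the 4 values lay in SFMA for 69 genes, in NL-SFMA for Mrps10 and Mrps30 and in N-SFMA for Mrps2. The lowest lay in NL-SFMA for 58 genes, in L-SFMA for 12 and in N-SFMA for 2, and 39 genes followed the full order SFMA, N-SFMA, L-SFMA, NL-SFMA.

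**Figure D1:**
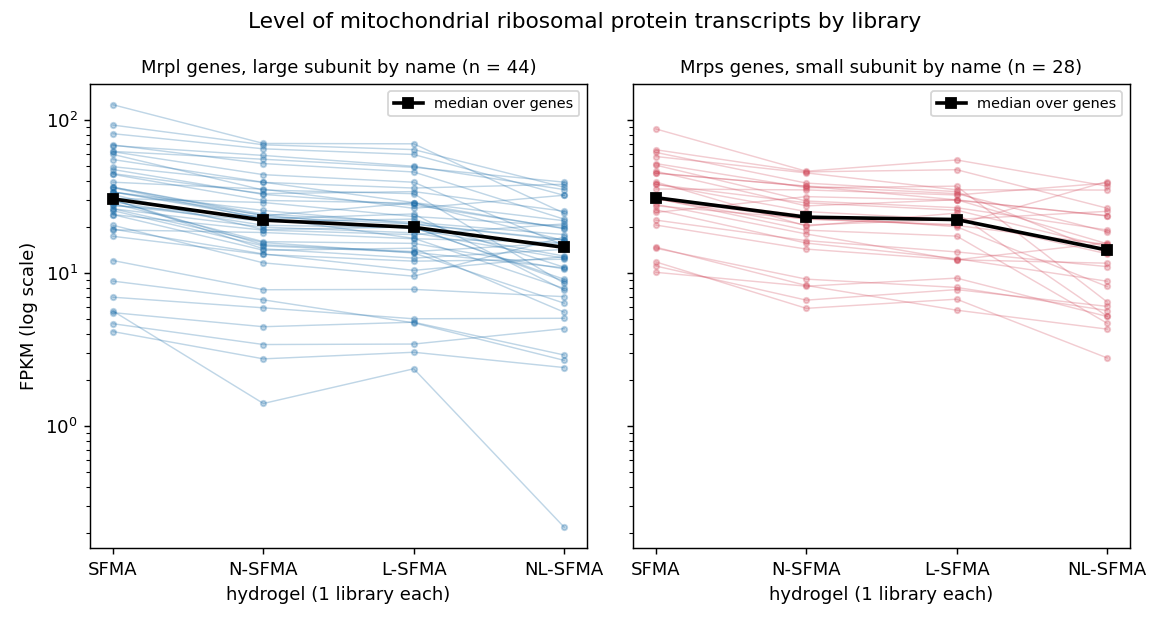
Level of each of the 72 genes in the 4 libraries, as FPKM on a log axis, with 44 Mrpl genes on the left and 28 Mrps genes on the right. Each thin line joins the values of 1 gene and the black squares are medians over genes, which run from 30.5 to 14.7 for Mrpl and from 31.1 to 14.1 for Mrps genes.

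Levels differed widely among the genes of each subunit. The highest in the large subunit was Mrpl27, the counterpart of a bacterial protein whose end reaches the peptidyl transferase centre, at 126 FPKM with SFMA, 70.3 with N-SFMA, 69.9 with L-SFMA and 24.6 with NL-SFMA. Its SFMA value was above that of every other gene of the set, while on NL-SFMA it was below Mrpl3, which lies on the peptidyl transferase side and held 62.3, 55.4, 49.0 and 39.2 FPKM. Mrpl17 (92.7, 68.9, 64.1 and 36.4), Mrpl20 (81.4, 64.8, 59.5 and 32.2) and Mrpl49 (68.0, 58.7, 49.8 and 35.1 FPKM) followed Mrpl27 in the mean over the 4 libraries. Each of these had its 4 values in the order of the whole set.

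At the low end of the large subunit stood Mrpl33, Mrpl52 and Mrpl47. Mrpl33 was at 5.64 FPKM with SFMA, 1.40 with N-SFMA, 2.36 with L-SFMA and 0.218 with NL-SFMA, the last from 2 reads. Mrpl52 held 4.14, 2.75, 3.03 and 2.41 FPKM, and Mrpl47, the gene with the longest model (5137 bases), 4.66, 3.41, 3.43 and 4.33 FPKM. Mrpl47 overlaps Actl6a and Ndufb5 by gene span in the RefSeq annotation (GRCr8), which need not be the annotation used for counting. Shared exons were not examined and the counting's strand setting is not given. Whether reads of these genes were mixed is therefore not known. In all, 19 of the 71 genes found in the RefSeq annotation overlap another gene by span. Among them are also Mrpl27 (with Eme1), Mrpl49 (with Syvn1), Mrpl10 (with Lrrc46), Mrps2 (with Pierce1), Mrps12 (with LOC103689966) and Mrps31 (with LOC120097532).

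In the small subunit the leading genes were Mrps33, Mrps24, Mrps35 and Mrps21. Mrps33, which has no bacterial counterpart and has the shortest model of the set (622 bases), held 87.4 FPKM with SFMA, 46.3 with N-SFMA, 54.8 with L-SFMA and 37.0 with NL-SFMA. Mrps24, the counterpart of bacterial S3 at the messenger RNA entry, held 63.9, 45.8, 47.3 and 26.5 FPKM. Mrps35 held 57.7, 45.1, 35.0 and 34.8 FPKM, and Mrps21 held 61.4, 38.7, 34.0 and 13.4. The order of Mrps35 and Mrps21 thus turned between the SFMA and the NL-SFMA libraries. The lowest were Mrps7 (11.8, 5.87, 6.74 and 2.79), Mrps15 (11.1, 6.64, 7.79 and 6.05) and Mrps31 (10.1, 8.20, 9.26 and 5.20 FPKM).

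Against SFMA, each of the other 3 libraries had lower mitoribosomal transcript levels, while the median over all genes tested was near 0. These comparisons share the SFMA library and are not independent of each other. The difference is given as the log2 ratio of FPKM + 1, so the pseudocount of 1 FPKM shrinks differences of weak genes such as Mrpl33. The median over the 72 genes was -0.49 with N-SFMA, -0.60 with L-SFMA and -1.15 with NL-SFMA, and over all genes tested -0.02, 0.05 and -0.10. With a size rule of 1.5-fold in place of a test, 25 genes were lower with N-SFMA, 37 with L-SFMA and 58 with NL-SFMA, and none was higher in any of the 3. The rule called 10.7% of all genes tested lower and 7.24% higher with N-SFMA, 11.1% and 14.8% with L-SFMA, and 29.3% and 21.6% with NL-SFMA. Past 2-fold lower were 2, 6 and 40 of the 72 genes, and 2.65%, 3.04% and 15.1% of all genes tested.

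Read depth was enough to place most genes. Ratios of a gene's share of reads were given exact (Clopper-Pearson) 95% intervals, which cover counting error alone and say nothing of the spread between cultures. In each of the 3 comparisons the interval lay below 1 for 68 of 72 genes and above 1 for 1. Over all genes tested it lay below 1 for 35.8% with N-SFMA, 32.3% with L-SFMA and 45.4% with NL-SFMA, and above 1 for 32.4%, 40.6% and 37.1%. The mitoribosomal gene above 1 was Mrps2 on N-SFMA and on L-SFMA and Mrps10 on NL-SFMA. The median width of an interval to either side was 0.16 on the log2 scale on N-SFMA and L-SFMA and 0.20 on NL-SFMA.

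**Figure D2:**
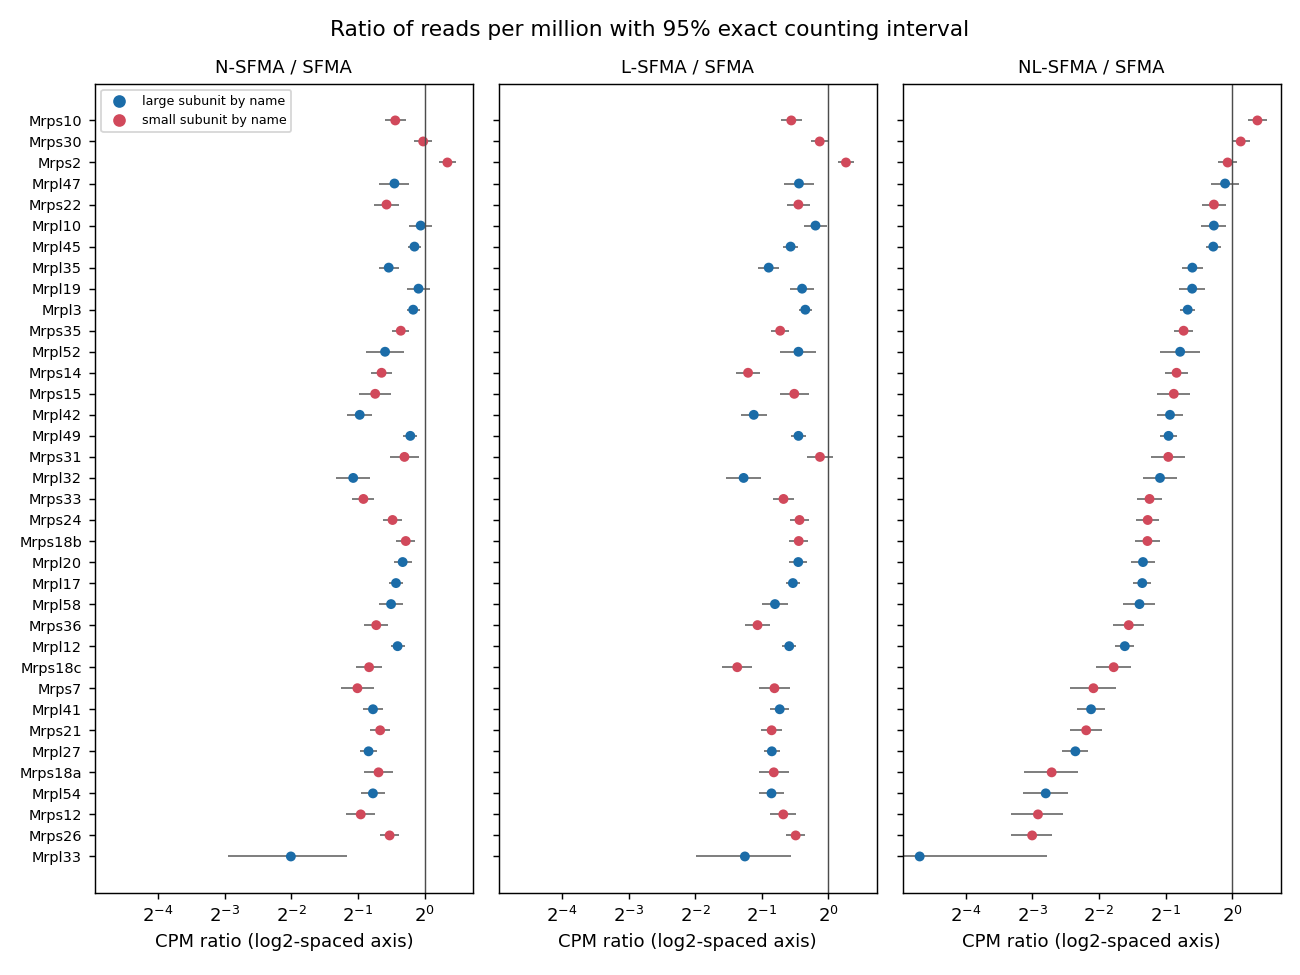
Ratio of each gene's share of reads to that on SFMA (CPM ratio) for the 36 genes chosen by the naming rule, on a log2-spaced axis, with exact 95% counting intervals as bars and 1 panel for each of the other libraries. Most points lie left of the line at 1 in all panels, Mrps2 lies right of it on N-SFMA and L-SFMA, and Mrps10 on NL-SFMA. The interval of Mrpl33 on NL-SFMA runs down to 0.00459.

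Gene length entered every comparison. Mitoribosomal gene models are short, with a median of 1494 bases against 2969 for all genes tested, and short genes outside the set were also lower, in their median, than long ones in the 3 other libraries relative to SFMA. The median for other genes under 1000 bases was -0.45 with N-SFMA, -0.58 with L-SFMA and -0.89 with NL-SFMA. The trend fitted through the genes outside the set passed -0.29, -0.30 and -0.70 at 1500 bases and reached 0.48, 0.77 and 1.02 at 12000 bases. Among the 72 genes themselves the measured difference and log2 length correlated at Pearson r = 0.41 with N-SFMA, 0.32 with L-SFMA and 0.50 with NL-SFMA, across genes of the same libraries. The trend was subtracted at each gene's length, and the remainder is called the length-adjusted difference. Its correlation with log2 length among the 72 genes was r = -0.11 with N-SFMA, -0.41 with L-SFMA and 0.13 with NL-SFMA. On L-SFMA a relation with length of the opposite sign thus remained. The length-adjusted difference also correlated with mean log2 level among the 72 genes, at r = 0.57, 0.47 and 0.22. Over all genes tested this was 0.05, -0.10 and -0.11. Weaker genes of the set thus tended to lie lower after adjustment, and the part of this in the medians below was not tested.

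**Figure D3:**
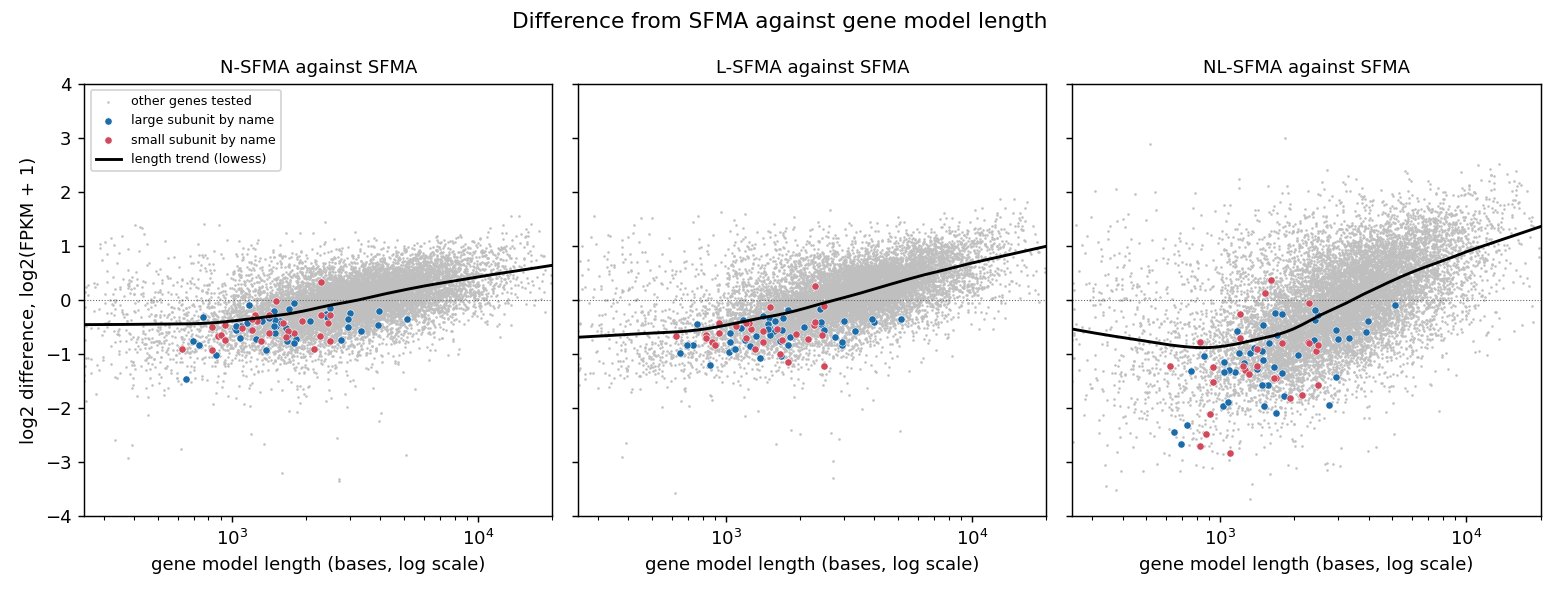
Log2 difference of FPKM + 1 from SFMA against gene model length (log axis) for all genes tested (grey), large-subunit names (blue) and small-subunit names (red), with the fitted length trend in black and 1 panel per library. Most coloured points lie below the trend in each panel, and on NL-SFMA they reach from 0.37 for Mrps10 to -2.82 for Mrps26.

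After the adjustment the median of the genes was still below 0, by a smaller amount. The median of the 72 was -0.21 with N-SFMA, -0.32 with L-SFMA and -0.48 with NL-SFMA, with the medians of all genes tested at 0.00, 0.00 and -0.01. The length-adjusted difference was below 0 for 63, 65 and 60 of the genes, and for 49.8%, 50.2% and 50.8% of all genes tested. By 1.5-fold or more, 7 were lower with N-SFMA, 15 with L-SFMA and 28 with NL-SFMA, against 6.83%, 7.54% and 19.0% of all genes tested. As shares of the set these counts were 9.72%, 20.8% and 38.9%. With the trend fitted over every gene listed, where 74 genes carried the names, the counts were 14, 28 and 48, against 5.86%, 6.54% and 17.2% of all genes listed, which is over 1.5 times as many in each comparison. Higher by the same rule were 0, 0 and 2 of the 72, against 5.75%, 8.05% and 19.0% of all genes tested.

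The lower values were present in each class of length. On NL-SFMA the 12 genes under 1000 bases had a measured median of -1.81 (other genes -0.89), the 25 from 1000 to under 1500 bases -1.21 (-0.78), the 26 from 1500 to under 2500 bases -0.82 (-0.54), and the 9 of 2500 bases and over -0.59, where other genes were at 0.19. Their length-adjusted medians were -0.93, -0.44, -0.47 and -0.59. On L-SFMA the length-adjusted medians of the same classes were -0.22, -0.24, -0.35 and -0.67. There 8.33% of the genes under 1000 bases were at least 1.5-fold lower after adjustment (other genes 12.9%). For those of 2500 bases and over the share was 66.7% (other genes 7.35%).

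Large and small subunit genes had similar median levels in each library, with no measure of the spread between cultures. The median level of Mrpl and Mrps genes was 30.5 and 31.1 FPKM on SFMA, 22.2 and 23.2 with N-SFMA, 19.9 and 22.4 with L-SFMA and 14.7 and 14.1 with NL-SFMA. The summed FPKM of the large subunit was 1.61 times that of the small subunit on SFMA, 1.63 times with N-SFMA, 1.58 times with L-SFMA and 1.53 times with NL-SFMA. Grouped by place, these ratios were 1.84, 1.90, 1.83 and 1.83. The ratio of the subunits thus moved little while the sum over the set was more than 2-fold lower in the NL-SFMA than in the SFMA library.

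The ratio of summed reads to SFMA was 0.726 (0.715 to 0.737) for large and 0.723 (0.708 to 0.738) for small subunit names with N-SFMA, 0.658 (0.648 to 0.669) and 0.666 (0.652 to 0.680) with L-SFMA, and 0.481 (0.473 to 0.490) and 0.490 (0.478 to 0.502) with NL-SFMA, and the counting intervals of the subunits overlap in each. Median length differed little between the subunits, at 1531 bases for Mrpl and 1414 for Mrps genes, but the longest models were all Mrpl. All 9 genes of 2500 bases and over were Mrpl genes. Their length-adjusted medians were -0.47 with N-SFMA, -0.67 with L-SFMA and -0.59 with NL-SFMA, each below that of the whole set. The part of these long genes in the subunit values below was not tested. The measured medians were -0.48 for large and -0.53 for small with N-SFMA, -0.57 and -0.64 with L-SFMA, and -1.07 and -1.22 with NL-SFMA. The length-adjusted medians were -0.21 and -0.22 with N-SFMA, -0.34 and -0.26 with L-SFMA and -0.47 and -0.50 with NL-SFMA. Large minus small came to 0.05, 0.06 and 0.15 on the log2 scale as measured, and to 0.01, -0.08 and 0.03 after adjustment. The sign on L-SFMA thus turned with the length adjustment. By place the adjusted values were -0.01, -0.09 and 0.02, so the sign on N-SFMA turned with the grouping. Across the processing alternatives the adjusted sign on N-SFMA and NL-SFMA also turned, with ranges of -0.05 to 0.02 and -0.04 to 0.13. On L-SFMA the adjusted value stayed between -0.13 and -0.05. At least 1.5-fold lower after adjustment were 5 large and 2 small subunit genes with N-SFMA, 10 and 5 with L-SFMA, and 16 and 12 with NL-SFMA. As shares of the large and small subunit these were 11.4% and 7.14%, 22.7% and 17.9%, and 36.4% and 42.9%. Of all genes tested 6.83%, 7.54% and 19.0% were lower by this rule.

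Grouping by origin also gave like values. The 42 proteins with a bacterial counterpart had length-adjusted medians of -0.23, -0.34 and -0.48 on N-SFMA, L-SFMA and NL-SFMA, and the 29 specific to mitochondria -0.20, -0.27 and -0.47. On L-SFMA 23.8% and 13.8% of these were at least 1.5-fold lower after adjustment, against 7.54% of all genes tested. Within the small subunit the L-SFMA medians were -0.31 (15 genes) and -0.09 (10), and within the large -0.39 (27) and -0.32 (19). These differences were not tested. The 8 genes of the central protuberance, the crown of the large subunit, had -0.29, -0.30 and -0.56. On NL-SFMA all 8 were below 0, as were 39 of the 46 genes placed in the large subunit and 50.8% of all genes tested. The 5 genes around the tunnel exit had -0.20, -0.48 and -0.47. Among them Mrpl45, on the membrane side of the exit, was 39.2 FPKM with SFMA, 35.3 with N-SFMA, 26.5 with L-SFMA and 32.2 with NL-SFMA, lowest on L-SFMA. Of the stalk proteins, which recruit translation factors, Mrpl12 was 68.7, 51.9, 45.7 and 22.5 FPKM and its partner Mrpl10 was 19.1, 18.4, 16.7 and 15.8. The NL-SFMA ratio to SFMA was 0.327 (0.296 to 0.361) for Mrpl12 and 0.826 (0.726 to 0.940) for Mrpl10, intervals that do not overlap.

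The genes differed most from each other on NL-SFMA. The middle 50% of length-adjusted differences spanned 0.31 with N-SFMA, 0.38 with L-SFMA and 0.69 with NL-SFMA, where it spanned 0.46, 0.50 and 0.89 over all genes tested. At the low end on NL-SFMA were Mrps26, Mrps12 and Mrpl54. Mrps26, a small-subunit protein with no bacterial counterpart, held 51.9 FPKM with SFMA, 36.1 with N-SFMA, 36.9 with L-SFMA and 6.47 with NL-SFMA. The NL-SFMA level was far below the other 3, and SFMA was 8.02-fold higher than it (6.52 to 9.95). The length-adjusted difference of Mrps26 was -0.14 with N-SFMA, -0.05 with L-SFMA and -1.99 with NL-SFMA.

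Mrps12, a protein of the decoding centre, held 39.4 FPKM with SFMA, 20.3 with N-SFMA, 24.6 with L-SFMA and 5.22 with NL-SFMA, the last from 61 reads. SFMA was 7.54-fold above NL-SFMA (5.79 to 9.99), and the length-adjusted difference was -1.82. Mrpl54, a mitochondria-specific protein of the large subunit, held 59.6, 34.8, 33.0 and 8.57 FPKM, with SFMA 6.96-fold above NL-SFMA (5.55 to 8.83) and a length-adjusted difference of -1.81. In these 3 genes N-SFMA and L-SFMA stood near each other and between the extremes.

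Mrpl41 and Mrpl27 were likewise highest on SFMA and lowest on NL-SFMA. Mrpl41 held 24.1 FPKM with SFMA, 14.1 with N-SFMA, 14.5 with L-SFMA and 5.55 with NL-SFMA, and its model of 2761 bases makes it the longest gene among the lowest 6. Its length-adjusted difference was -0.67, -0.69 and -1.73. For Mrpl27 it was -0.39, -0.28 and -1.44. Mrpl33 had -1.02, -0.39 and -1.60, but with 2 reads on NL-SFMA its ratio to SFMA of 0.0387 had an interval from 0.00459 to 0.146.

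At the other end stood Mrps10, Mrps30 and Mrps22. Mrps10, a small-subunit protein with a bacterial counterpart, held 30.5 FPKM with SFMA, 22.5 with N-SFMA, 20.7 with L-SFMA and 39.6 with NL-SFMA. NL-SFMA was thus the highest of the 4, at 1.30 times SFMA (1.18 to 1.43) and 1.91 times L-SFMA (1.72 to 2.13). Its length-adjusted difference from SFMA was -0.15, -0.25 and 1.04. Mrps30, placed in the large subunit, held 35.4, 34.9, 32.4 and 38.7 FPKM, and its ratio on NL-SFMA was 1.09 with an interval that includes 1 (0.995 to 1.20). Mrps22, a mitochondria-specific protein of the small subunit, held 30.6, 20.6, 22.4 and 25.3 FPKM, and its length-adjusted difference on NL-SFMA was 0.53. These were the 3 highest of the set after adjustment, and Mrps10 (1.04) and Mrps30 (0.83) were the pair past 1.5-fold.

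**Figure D4:**
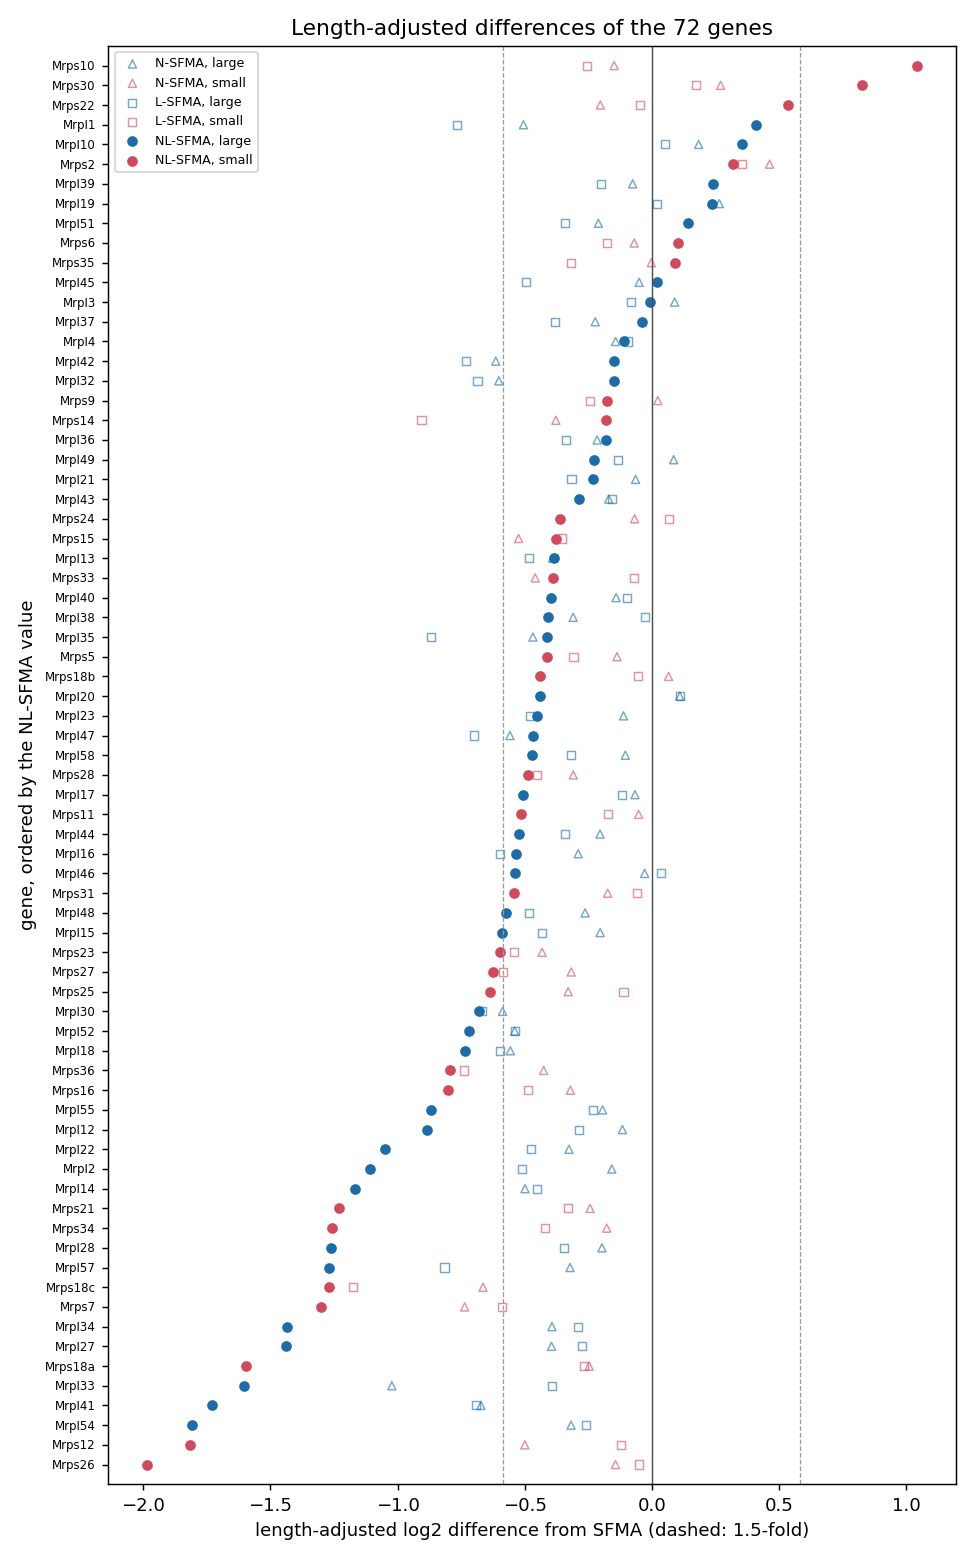
Length-adjusted log2 difference from SFMA for each of the 72 genes, ordered by the NL-SFMA value (filled circles), with N-SFMA as open triangles and L-SFMA as open squares, large-subunit names in blue and small-subunit names in red. The NL-SFMA values run from -1.99 for Mrps26 to 1.04 for Mrps10, both colours occur along the whole order, and the dashed lines mark 1.5-fold.

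The promoter matches can be set beside these values. The 8 genes with the YY1 letters had a median length-adjusted difference of -0.17 on NL-SFMA, with a range from -1.60 (Mrps18a) to 1.04 (Mrps10), and the 49 matched genes without them had -0.52. On N-SFMA the same groups were at -0.22 and -0.21, and on L-SFMA at -0.30 and -0.33. Genes with and without the ETS letters were at -0.60 (20 genes) and -0.47 (37) on NL-SFMA, and those with and without the NRF1 letters at -0.68 (11) and -0.47 (46). The genes with both the ETS and the YY1 letters were Mrps10 (1.04 on NL-SFMA), Mrpl36 (-0.18), Mrps27 (-0.63) and Mrps18a (-1.60). The differences between genes with and without a motif were not tested.

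On N-SFMA and L-SFMA other genes led. Mrps2, a protein of the small subunit with a bacterial counterpart, held 24.9 FPKM with SFMA, 31.6 with N-SFMA, 29.9 with L-SFMA and 23.7 with NL-SFMA. It was the only gene of the 72 above SFMA by its counting interval on N-SFMA (1.27 times, 1.16 to 1.38) and L-SFMA (1.20 times, 1.10 to 1.31), and the interval on NL-SFMA (0.867 to 1.05) included 1. The lowest after adjustment on N-SFMA were Mrpl33 (-1.02), Mrps7 (-0.74), which binds the ribosomal RNA of the small subunit head, and Mrpl41 (-0.67). By measured difference Mrpl32 (30.2, 14.4, 12.5 and 14.3 FPKM) and Mrpl42 (30.0, 15.3, 13.8 and 15.7 FPKM) were also among the lowest on N-SFMA, with SFMA high and the other 3 libraries close together. The lowest on L-SFMA were Mrps18c (-1.17), Mrps14 (-0.91) and Mrpl35 (-0.87). Mrps14 held 28.1 FPKM with SFMA, 18.0 with N-SFMA, 12.2 with L-SFMA and 15.8 with NL-SFMA, and Mrpl35 held 19.3, 13.3, 10.4 and 12.8. Both were lowest on L-SFMA.

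The 3 paralogs related to bacterial S18 differed in level and in pattern. Mrps18b held 44.9 FPKM with SFMA, 37.0 with N-SFMA, 33.0 with L-SFMA and 18.6 with NL-SFMA. Mrps18a held 30.7, 19.0, 17.4 and 4.70 FPKM, and Mrps18c, the closest counterpart of the bacterial protein, 14.7, 8.28, 5.71 and 4.30. Each had its 4 values in the order of the whole set. The ratio of NL-SFMA to SFMA was 0.414 (0.364 to 0.470) for Mrps18b, 0.291 (0.243 to 0.348) for Mrps18c and 0.153 (0.114 to 0.201) for Mrps18a, and none of these intervals overlap. On L-SFMA the lowest was Mrps18c at 0.387 (0.332 to 0.451), with Mrps18a at 0.567 (0.484 to 0.662) and Mrps18b at 0.735 (0.665 to 0.812).

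A pair of genes with roles beside the core ribosome were also highest on SFMA and lowest on NL-SFMA. Mrps36, of the 2-oxoglutarate dehydrogenase complex, held 25.9 FPKM with SFMA, 15.7 with N-SFMA, 12.4 with L-SFMA and 8.84 with NL-SFMA. Mrpl58, which belongs to the large subunit and to a family of peptide release factors, held 33.8, 23.9, 19.4 and 12.9 FPKM. Their length-adjusted differences on NL-SFMA were -0.79 and -0.47.

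NL-SFMA was also lower than each of the libraries whose names carry a letter alone. Against N-SFMA the length-adjusted median of the 72 was -0.31, with 18 at least 1.5-fold lower (11.9% of all genes tested) and 3 higher (11.4%). Against L-SFMA it was -0.13, with 17 lower (13.0% of all genes tested) and 4 higher (11.0%). The counting interval lay below 1 for 55 genes against N-SFMA and for 53 against L-SFMA, and above 1 for 5 and 8. Over all genes tested it lay below 1 for 39.4% and 44.7%, and above 1 for 33.7% and 28.8%. L-SFMA against N-SFMA had a length-adjusted median of -0.14 with no gene of the set past 1.5-fold, where 0.960% of all genes tested were lower and 2.21% higher.

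Other genes of mitochondrial translation and of the ribosome itself varied by list. Lists of ribosomal proteins without an Mrp name (4 tested), ribosome assembly factors (25), translation factors (17), aminoacyl-tRNA synthetases and amidotransferase subunits (17) and factors of mitochondrial DNA and RNA (13) held 76 genes. Their joint length-adjusted median was -0.06 with N-SFMA, -0.06 with L-SFMA and -0.12 with NL-SFMA, with 4, 4 and 17 at least 1.5-fold lower and 1, 1 and 4 higher. The shares lower were 5.26%, 5.26% and 22.4%, where all genes tested had 6.83%, 7.54% and 19.0%, and on NL-SFMA, the library of the list counts below, 19.0% of all genes tested were also higher. The difference between these medians and those of the 72 genes was not tested.

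The 4 ribosomal proteins with other names had length-adjusted medians of -0.09, -0.29 and -0.61, with 2 of 4 lower by 1.5-fold on NL-SFMA and none higher. They were Dap3, Gadd45gip1, Ptcd3 and Chchd1. Dap3, a GTP-binding protein of the small subunit, held 23.2 FPKM with SFMA, 22.1 with N-SFMA, 19.1 with L-SFMA and 14.8 with NL-SFMA. Gadd45gip1, of the large subunit, held 45.5, 35.7, 33.1 and 18.0 FPKM, and Chchd1, of the small subunit, 91.9, 52.2, 47.1 and 18.5. Ptcd3, a small-subunit protein with RNA-binding repeats, was highest on NL-SFMA, at 16.9, 17.1, 16.5 and 23.5 FPKM. Their length-adjusted differences on NL-SFMA were -0.56, -0.66, -1.46 and 0.30.

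Assembly factors had a length-adjusted median of -0.24 on NL-SFMA, with 5 of 25 lower by 1.5-fold and 1 higher. Gtpbp6, a GTPase of large-subunit maturation and recycling, was 32.4 FPKM with SFMA, 18.2 with N-SFMA, 31.4 with L-SFMA and 7.74 with NL-SFMA, and Rcc1l held 14.0, 9.20, 11.2 and 4.90. Fastkd2, which binds the ribosomal RNA of the large subunit, went the other way at 5.07, 4.89, 5.36 and 10.6 FPKM.

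Translation factors had a median of -0.07 on NL-SFMA, with 2 of 17 lower and 2 higher. Tufm, the elongation factor that delivers aminoacyl-tRNA, was 68.9 FPKM with SFMA, 66.9 with N-SFMA, 56.0 with L-SFMA and 33.9 with NL-SFMA, and its exchange factor Tsfm held 23.0, 17.7, 18.2 and 7.75. Lrpprc and Slirp encode partners in a complex that stabilises mitochondrial messages. Lrpprc held 22.1, 39.3, 32.5 and 48.0 FPKM, lowest on SFMA, and Slirp 10.6, 4.72, 3.87 and 4.24, highest on SFMA.

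The aminoacyl-tRNA group had a median of -0.04 on NL-SFMA with 5 of 17 lower and none higher, among them the synthetases Aars2 (-0.68) and Sars2 (-0.61). Factors of mitochondrial DNA and RNA had -0.19, with 3 of 13 lower and 1 higher. Polrmt, the mitochondrial RNA polymerase, was at -0.85 and its partner Tfb2m at 0.92. Tfam, which packages mitochondrial DNA, held 43.9 FPKM with SFMA, 34.7 with N-SFMA, 33.3 with L-SFMA and 30.0 with NL-SFMA, and its length-adjusted difference on NL-SFMA was 0.17.

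**Figure D5:**
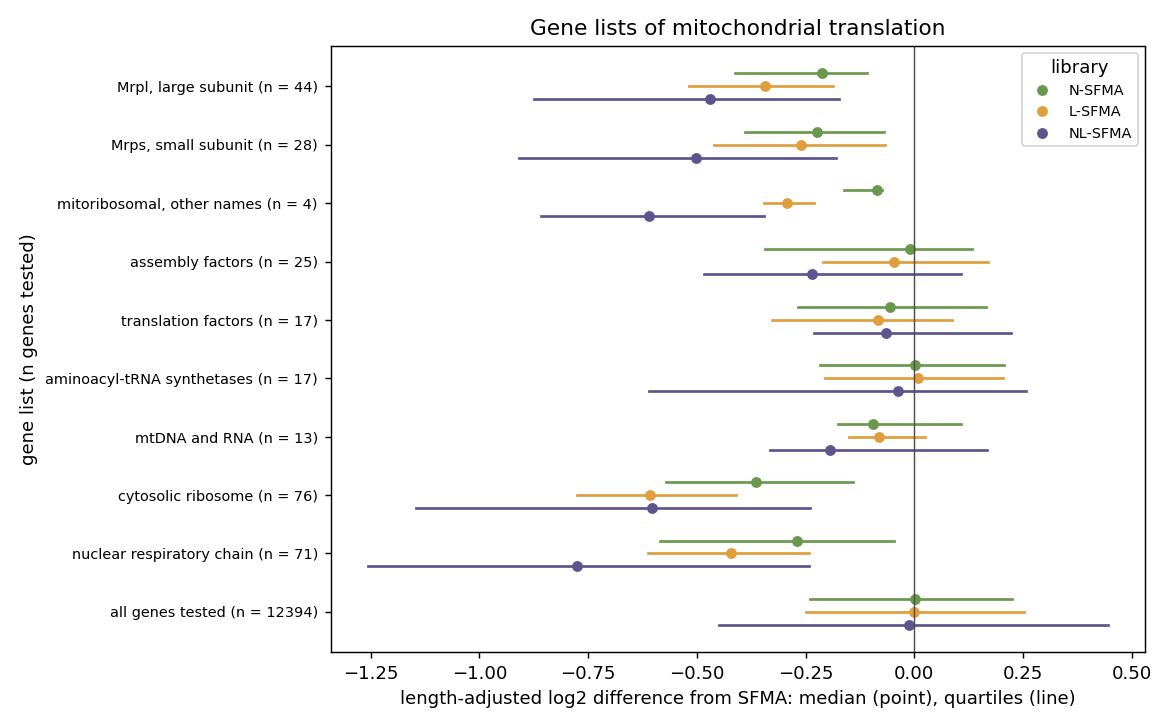
Length-adjusted log2 difference from SFMA for lists of mitochondrial translation genes, cytosolic ribosomal proteins, nuclear-encoded respiratory chain subunits and all genes tested, as medians (points) with the middle 50% of genes (lines), coloured by library. On NL-SFMA the Mrpl (-0.47) and Mrps (-0.50) medians lie near those of cytosolic ribosomal proteins (-0.60) and respiratory chain subunits (-0.78), and translation factors (-0.07) lie near all genes (-0.01).

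Nuclear-encoded genes of the cytosolic ribosome and of the respiratory chain were lower as well, while mitochondrially encoded genes were not after adjustment. The 76 cytosolic ribosomal protein genes had length-adjusted medians of -0.36 with N-SFMA, -0.61 with L-SFMA and -0.60 with NL-SFMA, and the 71 nuclear-encoded respiratory chain genes -0.27, -0.42 and -0.78. The 12 mitochondrially encoded messages, which the mitochondrial ribosome translates, had 0.10, 0.17 and 2.11. The measured median of these messages was -0.28, -0.29 and 1.27.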

How the data were processed

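RNA was extracted with Trizol and 1.5 µg per sample entered polyA library preparation and NovaSeq sequencing, per the labels' protocols. The submitters' processing notes name HISAT2, HTSeq 0.13.5 and the builds mRatBN7.2 and GRCh38, with no role given. The sources used here give no strand setting for the counting. The deposited files hold a read count per gene and an FPKM value, which equals the count divided by model length and by the summed count. Implied lengths were whole numbers to within 2.39e-09 bases.

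Each difference is the log2 ratio of FPKM plus a pseudocount of 1, for genes of at least 1 FPKM in at least 1 library. The length trend was a lowess fit (statsmodels 0.14.6, span 0.3) on log2 length over genes outside the set. The fit was run on simulated counts with a straight-line length trend and with changed genes drawn at random. The trend on NL-SFMA was not a straight line (-0.86 at 700 and at 1000 bases), so the simulation does not show how well the fit serves these data. Read ratios have exact 95% intervals (scipy 1.17.1). With 1 library per hydrogel no test was run and a 1.5-fold rule was used. The genes and lists were chosen with earlier results of these data known. Named genes were the 4 highest and 3 lowest by mean FPKM per subunit name, the 3 highest and 3 lowest per comparison on either scale, the longest and shortest models, some fixed for their role, and up to 3 per further list with Tufm, Lrpprc, Tfam and Dap3. The remaining members of the list without an Mrp name, and of the marker lists, were named to complete them. Alternatives were TMM (edgeR 4.0.16) and DESeq2 1.42.0 size factors applied to the counts for scaling alone, another pseudocount, other expression minimums, other length fits and the grouping by place.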

Additional observations from a re-analysis of the deposited data

Results flagged for a closer look

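For 8 of the 72 genes (11.1%), the ratios of the share of reads had counting intervals on opposite sides of 1 when the N of the hydrogel's name was added to SFMA and when it was added to L-SFMA. Of all genes tested 12.9% did the same, so the share among the 72 is near that of all genes. Mrps10 was 0.738 on N-SFMA against SFMA and 1.91 on NL-SFMA against L-SFMA, and Mrpl1, a large-subunit protein with a bacterial counterpart, 0.568 and 1.80. The same pair of ratios was 0.689 and 1.23 for Mrpl35, 0.901 and 1.22 for Mrpl45, 0.731 and 1.26 for Mrpl47, 0.792 and 1.17 for Mrpl51, and 0.640 and 1.29 for Mrps14. Mrps2 went the other way, at 1.27 and 0.794. With 1 library on each hydrogel the difference between the ratios was not tested.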

How the results depend on the processing

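With 1 library per hydrogel, no library could be left out and the spread between cultures cannot be seen. No paired analysis was possible because each hydrogel has 1 library. No median over the 72 genes changed sign under a pseudocount of 0.1 FPKM, a minimum of 5 FPKM, every gene listed (74 named genes), TMM or DESeq2 scaling or other length fits. The grouping by place was run for large minus small subunit alone, where it turned the sign on N-SFMA (0.01 to -0.01). Of 105 recomputed values, 76 stayed within 1.5 times (counts of genes) or within the counting error of the set's summed reads (medians), and 29 moved further. In the same order of comparisons as above, the measured medians were -0.45, -0.66 and -1.09 with TMM and -0.45, -0.67 and -1.06 with DESeq2 scaling. On N-SFMA the measured median was -0.51 with the pseudocount of 0.1, and on NL-SFMA it was -1.21 with that pseudocount, -1.19 with the minimum of 5 FPKM and -1.13 with every gene listed. The length-adjusted medians were -0.17, -0.24 and -0.33 with the minimum of 5 FPKM and -0.35, -0.50 and -0.81 with every gene listed, where 14, 28 and 48 genes were at least 1.5-fold lower. With the pseudocount of 0.1 they were -0.29 on L-SFMA and -0.44 on NL-SFMA, and with expression fitted after length -0.24 on N-SFMA and -0.45 on NL-SFMA. After length adjustment, large minus small was -0.049, -0.13 and -0.040 with the 200 nearest genes in length. It was -0.12 on L-SFMA with the pseudocount of 0.1 and -0.033 on N-SFMA with the minimum of 5 FPKM. With every gene listed it was 0.13 on NL-SFMA. The causes were not tested. Depth limits Mrpl33 most, with 2 reads on NL-SFMA.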
